A study of Homo sapiens with 6 samples.

Results

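HLA class I and peptide-loading genes were examined in HCT116 cells, an established human colorectal carcinoma line. The group held 9 genes chosen by name: the heavy-chain genes HLA-B, HLA-C, HLA-E and HLA-F, the light-chain gene B2M, the peptide transporter genes TAP1 and TAP2, the loading chaperone gene TAPBP and the regulator gene NLRC5. They were 9 of 18750 genes with counts, and 83 of 98782 annotated transcripts. Cells had been transfected either with a negative control siRNA (siRNA-NC, 3 libraries) or with an siRNA against the long non-coding RNA AC010789.1 (si-AC010789.1, 3 libraries). Both groups came from the same line and the same culture medium, and both carried an siRNA, so untransfected cells are not part of the comparison. The study describes its repeats as biological and as made from cells of different generations. The labels do not give the generation behind a library or say whether libraries with the same number shared one. The level of AC010789.1 itself was not analysed here.

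Class I molecules consist of a heavy chain bound to β2-microglobulin, and they show peptides from inside the cell to CD8+ T cells. Proteasomes cut cytosolic proteins into peptides, the transporter formed by TAP1 and TAP2 moves these into the endoplasmic reticulum, and tapasin, the product of TAPBP, holds the empty heavy chain at the transporter until a peptide is bound. HLA-B and HLA-C are classical heavy chains, HLA-E is the ligand of the CD94-NKG2 receptors of natural killer cells, and HLA-F is a non-classical heavy chain. NLRC5 is a transactivator that acts with the RFX and NF-Y factors at class I promoters. Interferons raise the expression of most of these genes through promoter elements bound by IRF factors, and loss of class I presentation is a known feature of some colorectal cancers.

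Promoter windows are shown because induction by interferon is the best-known property these genes share. RefSeq promoter sequences (GRCh38.p14, 250 bases before to 50 after the start) were matched for 7 of the 9 genes, all but HLA-E and NLRC5. All 7 held the letters TTTCNNTT on at least 1 strand, a sequence also present in 22.8% of all 35116 promoters. In the 30-base windows here, written 5′ to 3′ on the strand of the gene, capitals mark those letters or their reverse complement AANNGAAA.
HLA-B: actcccctgagTTTCACTTcttctcccaac
HLA-C: actcccctgagTTTCACTTctcccaacctg
HLA-F: tctccccagagTTTCTCTTtctctcccaac
B2M: ctctaagaAAAGGAAACTGAAAacgggaaa
TAP1: gcggccgcTTTCGATTTCGCTTtcccctaa
TAP2: ggctggggAAGCGAAAGCGAAAgctgcccg
TAPBP: ttggaggaAAGTGAAAGTGAAAggaggaag

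The windows lie at chr6:31357316-31357345 (HLA-B, minus strand), chr6:31272225-31272254 (HLA-C, minus), chr6:29723267-29723296 (HLA-F, plus), chr15:44711367-44711396 (B2M, plus), chr6:32853817-32853846 (TAP1, minus), chr6:32838780-32838809 (TAP2, minus) and chr6:33314075-33314104 (TAPBP, minus, reaching past the start). Starts are those of RefSeq and differ from the GENCODE annotation used for the counts. The HLA-F, TAP1 and TAPBP windows lie inside the GENCODE spans of these genes, and the TAP2 window meets the end of its span. The TAP1 window lies in the first exon (chr6:32853039-32853978) of ENST00000354258, the leading TAP1 transcript. The letters occurred once in each of the 3 heavy-chain promoters. In B2M, TAP1, TAP2 and TAPBP they occurred 2 times with a shared pair of bases, so the capitals run on. HLA-B and HLA-C held the letters TGACGC of the X2 box, to which CREB and ATF factors bind, 106 and 105 bases before the start, and TAP2 held them 35 bases before the start. TGACGC or its reverse complement GCGTCA was found in 9.1% of all promoters. The letters GGGNNTTCC, a pattern of NF-κB sites, or their reverse complement GGAANNCCC were found in HLA-B, TAPBP and B2M, against 6.6% of all promoters. The letters ATTGG of an inverted CCAAT box, or their reverse complement CCAAT, were found in 5 of the 7 genes, against 34.6% of all promoters. These matches describe the letters and are not evidence of binding in these cells.

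The 6 libraries held 11277222 to 13443866 counts, of which the 9 genes took 0.0468% to 0.0544%, and 3 counts corresponded to 0.223 to 0.266 CPM. CPM, the count scaled by library size, was computed with library sizes corrected by the TMM method. Of the 9 epithelial markers listed for the labelled line, 7 had counts. Of the 6 tested, 4 had log2 fold changes below 0 and 2 above, and none passed the adjusted threshold in edgeR. KRT8, a keratin of simple epithelium, stood at 730, 850 and 576 CPM in siRNA-NC and at 500, 444 and 658 CPM in si-AC010789.1. KRT18, also a keratin of simple epithelium, reached 351 to 535 CPM and CLDN7 19.0 to 26.4 CPM. ELF3 stood at 91.3, 76.8 and 88.8 CPM in siRNA-NC and at 68.7, 59.4 and 66.8 CPM in si-AC010789.1. It was the 1 epithelial marker whose groups did not overlap (exact permutation test p = 0.1). EPCAM stood at 3.10 to 5.59 CPM, and CDH17 was at or under 3 counts in every library. CLDN4, a tight-junction protein, stood at 22.5 to 25.7 CPM in siRNA-NC and at 28.9, 0.32 and 1.78 CPM in si-AC010789.1. Of 10 leukocyte markers 4 had counts, with a summed level of 7.05 to 9.28 CPM in siRNA-NC and 3.72 to 6.31 CPM in si-AC010789.1. Most of this sum was CD68, a lysosomal protein (6.73 ± 1.49 against 3.29 ± 1.29 CPM, SD, n = 3), while CD14 and LAPTM5 stayed at or under 1.13 CPM. All 8 class II markers had counts. HLA-DPA1 and HLA-DPB1 reached 30.6 to 56.8 and 20.4 to 38.4 CPM. HLA-DRB1, HLA-DMA, HLA-DMB and CIITA stayed at or under 4.72 CPM. HLA-DRA and CD74, the partner chains found on professional presenting cells, stayed at or under 0.262 and 0.879 CPM. The summed class II level was 73.7 to 86.0 CPM in siRNA-NC and 60.2 to 104.5 CPM in si-AC010789.1. Of 6 fibroblast markers 4 had counts, with summed levels of 59.7 to 69.3 and 63.8 to 68.6 CPM. The part of these markers in the class I values was not tested. In RNA from whole cultures, fewer cells that express a gene and less of its RNA per cell cannot be told apart.

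None of the 9 genes passed an adjusted p of 0.05 in edgeR's quasi-likelihood test, where 0.982% of the 13750 genes tested did (0.698% lower and 0.284% higher with si-AC010789.1). These were 135 genes, 12 to 37 when any 1 of the 6 libraries was left out, and 0 with the replicate number as a block. At an unadjusted p under 0.05, 3 of the 9 were counted, HLA-C, TAP1 and NLRC5, all with lower means, against 17.2% of all genes (8.92% lower). With 1 library left out this count was 0 to 2 of the 9, against 13.5% to 14.9% of all genes, and it was 0 without the first treated library. The genes counted changed with the library left out. They were TAP1 (lower) and TAPBP (higher) without the first control library, and HLA-B and HLA-C (both lower) without the third treated library. With the replicate number as a block the count was 1 of the 9, TAPBP (higher). DESeq2 called 1 of the 9, HLA-C with a lower level, against 3.78% of all genes (2.2% lower). Log2 fold changes were below 0 in 6 of the 9, against 50.1% of all genes, with a median of -0.14 (all genes, -0.00066). This median was -0.070 without the first treated library and -0.20 without the third. The values of both groups did not overlap in 3 of the 9, HLA-B, TAP1 and NLRC5, each lower with si-AC010789.1, while 25.1% of all genes did not overlap and 12.9% did so in the lower direction. Without the third treated library HLA-C and HLA-F joined them, at 5 of the 9, against 34.2% of all genes with the same library left out. An exact permutation test of 3 against 3 libraries cannot go below p = 0.1, and these 3 genes stood at that value.

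**Figure D1:**
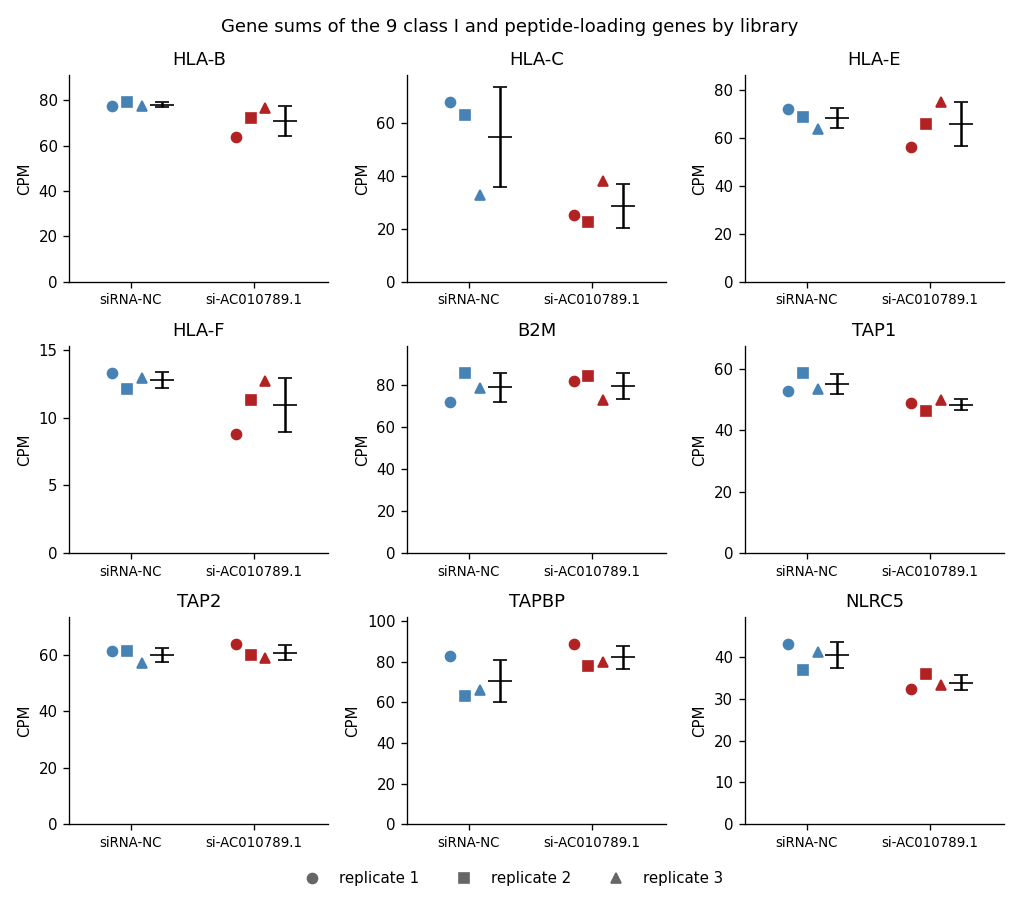
CPM of the gene sum (y axis, from 0) in each library of the siRNA-NC group (blue) and the si-AC010789.1 group (red) for the 9 genes; circles, squares and triangles are replicates 1, 2 and 3, and the black mark is the mean ± SD of 3 libraries. The groups overlap in 6 of the 9 panels, and HLA-C has the widest spread within a group, from 32.9 to 68.0 CPM in siRNA-NC.

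HLA-C, a classical heavy chain and a main ligand of killer-cell immunoglobulin-like receptors (ENSG00000204525.16, GRCh38 chr6:31268749-31272130, minus strand), had the largest difference of the 9. It stood at 68.0, 62.8 and 32.9 CPM in siRNA-NC and at 25.3, 22.5 and 38.1 CPM in si-AC010789.1. The third control library lay among the treated libraries, and the groups overlapped. Means were 54.6 ± 18.9 and 28.6 ± 8.28 CPM (SD, n = 3), with a log2 fold change of -0.93 ± 0.32 (SE, edgeR adjusted p = 0.218, 95% interval -1.69 to -0.17). DESeq2 gave -0.93 with an adjusted p of 0.0482, just inside the threshold, and the exact permutation test gave p = 0.2. The range among control libraries was 1.02 on the log2 scale, wider than in 95.1% of the genes tested, and the range among treated libraries was 0.73, wider than in 90.6%. Leaving out 1 library at a time moved the log2 fold change between -1.19 and -0.74, with the lowest value when the third control library was left out.

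HLA-B, also a classical heavy chain (ENSG00000234745.10, chr6:31269491-31357188, minus strand), stood at 77.4, 79.3 and 77.3 CPM in siRNA-NC and at 63.7, 72.1 and 76.4 CPM in si-AC010789.1. The treated libraries were all below the control libraries, the third by less than 1 CPM. The control libraries spread over 0.036 on the log2 scale, and only 2.32% of genes had a smaller range. The log2 fold change was -0.14 ± 0.079 (SE, edgeR adjusted p = 0.422), with a 95% interval of -0.33 to 0.049. It was -0.070 without the first treated library and -0.20 without the third. Its annotated span is long because of 1 transcript, ENST00000640615, that runs from HLA-B into an exon of HLA-C and held 55 to 78 counts per library. HLA-B and HLA-C share 35 exonic bases through it.

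HLA-E (ENSG00000204592.8, chr6:30489467-30494205, plus strand) stood at 72.0, 68.8 and 63.8 CPM in siRNA-NC and at 56.3, 65.8 and 75.0 CPM in si-AC010789.1. The treated libraries held both the lowest and the highest value, and the log2 fold change was -0.054 ± 0.11 (SE, edgeR adjusted p = 0.848), with a 95% interval of -0.33 to 0.22. HLA-F (ENSG00000204642.13, chr6:29722775-29738528, plus strand) stood at 13.3, 12.1 and 12.9 CPM in siRNA-NC and at 8.82, 11.3 and 12.7 CPM in si-AC010789.1. The third treated library lay among the controls, and the log2 fold change was -0.22 ± 0.15 (SE, edgeR adjusted p = 0.504), with a 95% interval of -0.59 to 0.14. Without the first treated library the difference in HLA-F was -0.092, and without the third it was -0.35. In HLA-B, HLA-E and HLA-F alike, the first treated library was the lowest of the 6 and the third treated library was the highest of its group. Across the 6 libraries the log2 CPM of HLA-B and HLA-F had a Pearson r of 0.95, that of HLA-E and HLA-F 0.84 and that of HLA-B and HLA-E 0.81, given as a description over 6 libraries in 2 groups. These were the highest r among all pairs of the 9 genes. HLA-C with HLA-B, HLA-E and HLA-F gave 0.69, 0.62 and 0.61.

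B2M encodes β2-microglobulin, the light chain shared by all class I molecules (ENSG00000166710.18, chr15:44711487-44718877, plus strand). It stood at 72.1, 86.0 and 79.0 CPM in siRNA-NC and at 81.9, 84.5 and 73.0 CPM in si-AC010789.1. Each group covered nearly the same range, and the log2 fold change was 0.014 ± 0.090 (SE, edgeR adjusted p = 0.956), with a 95% interval of -0.20 to 0.23. The r of B2M with HLA-B, HLA-C, HLA-E and HLA-F was below 0 throughout, at -0.27, -0.36, -0.55 and -0.50 over the 6 libraries. These values are a description and were not tested against 0. The genes whose log2 CPM was most like that of B2M among the others tested were ZNF585A (r = 0.992), SSTR5 (r = 0.985) and ESD (r = 0.981), and 19 genes exceeded an r of 0.95 over these 6 libraries. SSTR5 stood at or under 0.98 CPM, and ESD stood at 30.5 to 36.7 CPM.

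TAP1 and TAP2 encode the subunits of the peptide transporter. TAP1 (ENSG00000168394.11, chr6:32845209-32853978, minus strand) stood at 53.0, 58.7 and 53.6 CPM in siRNA-NC and at 49.0, 46.4 and 49.9 CPM in si-AC010789.1. All treated libraries were below all control libraries, at a mean of 48.4 ± 1.799 against 55.1 ± 3.15 CPM (SD, n = 3). The log2 fold change was -0.19 ± 0.071 (SE, edgeR p = 0.036, adjusted p = 0.254, exact permutation test p = 0.1), with a 95% interval of -0.36 to -0.016. TAP2 (ENSG00000204267.13, chr6:32821833-32838780, minus strand) stood at 61.4, 61.5 and 57.0 CPM in siRNA-NC and at 63.8, 59.9 and 58.7 CPM in si-AC010789.1. The groups overlapped, and the log2 fold change was 0.020 ± 0.066 (SE, edgeR adjusted p = 0.913), with a 95% interval of -0.14 to 0.18.

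TAPBP, the gene of tapasin (ENSG00000231925.11, chr6:33299694-33314387, minus strand), had the highest log2 fold change of the 9. It stood at 82.6, 63.0 and 66.0 CPM in siRNA-NC and at 88.7, 77.8 and 79.9 CPM in si-AC010789.1. The first control library lay inside the range of the treated libraries. The log2 fold change was 0.22 ± 0.12 (SE, edgeR adjusted p = 0.394), with a 95% interval of -0.059 to 0.50. It went to 0.35 without the first control library (edgeR adjusted p = 0.201) and to 0.14 without the second.

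NLRC5, the class I transactivator (ENSG00000140853.15, chr16:56989485-57083531, plus strand), stood at 43.2, 37.0 and 41.3 CPM in siRNA-NC and at 32.5, 36.1 and 33.3 CPM in si-AC010789.1. Every treated library was below every control library, by 0.91 CPM at the closest. Means were 40.5 ± 3.15 and 34.0 ± 1.90 CPM (SD, n = 3), and the log2 fold change was -0.25 ± 0.088 (SE, edgeR p = 0.0259, adjusted p = 0.227, exact permutation test p = 0.1), with a 95% interval of -0.47 to -0.042. With any 1 library left out, the log2 fold change of NLRC5 stayed between -0.32 and -0.20 and that of TAP1 between -0.21 and -0.14.

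**Figure D2:**
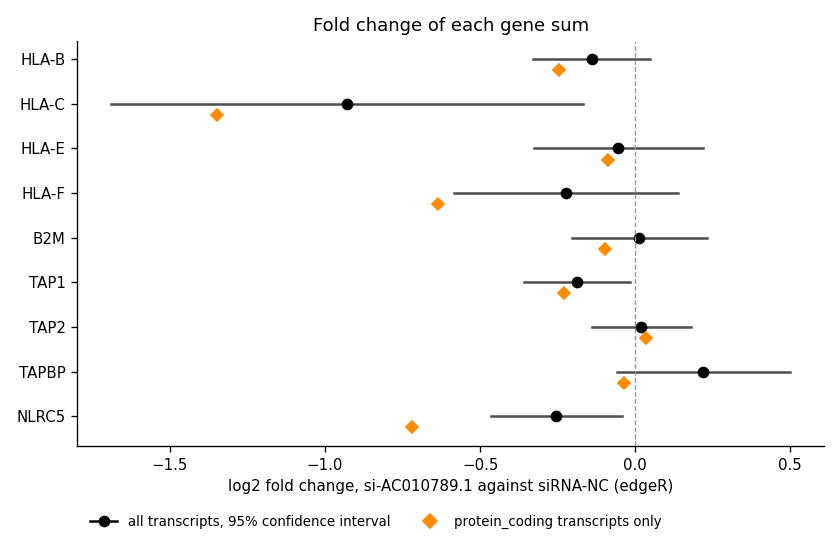
Log2 fold change (x axis) of si-AC010789.1 against siRNA-NC for each gene (y axis); black points with lines are edgeR estimates of the gene sum with 95% confidence intervals, and orange diamonds are estimates from protein_coding transcripts only. Intervals leave 0 out for HLA-C, TAP1 and NLRC5 before adjustment, and the diamonds lie far to the left of the points for HLA-C, HLA-F and NLRC5.

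Levels per transcript length were obtained by dividing each transcript's counts by its length and scaling each library to the same total. They depend on how counts were divided among transcripts of unlike length, so the order of genes and the ratios between them are approximate. In HLA-B, for example, ENST00000640615 is 240 bases long and the leading ENST00000412585 1547 bases. The short form held 7.55% of the HLA-B counts in siRNA-NC and takes a larger part of the length-scaled level. In siRNA-NC the order was HLA-B (177 ± 7.90), B2M (112 ± 9.67), HLA-C (74.5 ± 25.6), TAPBP (72.2 ± 3.96), HLA-E (57.1 ± 2.53), TAP1 (37.5 ± 2.14), TAP2 (32.6 ± 12.99), NLRC5 (24.0 ± 4.13) and HLA-F (22.5 ± 2.38; length-scaled units, SD, n = 3). HLA-B lay above 95.4% of the genes with counts and HLA-F above 62.8%. The ranges of the control libraries separated HLA-B from B2M, B2M from HLA-C, TAPBP from HLA-E and HLA-E from TAP1. They overlapped between HLA-C and TAPBP, between TAP1 and TAP2, between TAP2 and NLRC5 and between NLRC5 and HLA-F. TAP2 stood at 26.4, 47.5 and 23.9 length-scaled units in the control libraries, and TAP1 at 36.5, 40.0 and 36.2. The TAP1 and TAP2 ranges met only through the second control library. That library had 89.0% of its TAP2 counts in ENST00000374899, of 2497 bases, against 5676 bases for the leading form, while its TAP2 CPM was not apart. In si-AC010789.1 HLA-C stood at 41.7 ± 10.3 length-scaled units, below both TAPBP (92.1 ± 27.0) and HLA-E (57.6 ± 7.46). The TAPBP values were 123, 81.0 and 72.5. The first of these treated libraries had 60.7% of its TAPBP counts in ENST00000437116, of 1239 bases. The 4 heavy chains together stood at 2.97 ± 0.522 times the length-scaled level of B2M in siRNA-NC and at 2.53 ± 0.395 times in si-AC010789.1 (exact permutation test, two-sided p = 0.4). The ratio of HLA-C to HLA-B was 0.505, 0.482 and 0.268 in the control libraries and 0.258, 0.195 and 0.325 in the treated libraries (exact permutation test, two-sided p = 0.2). Both ratios overlapped between the groups, and the adjusted p over the 3 ratios computed was 0.6 for each.

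Single transcripts varied more than the sums. Of the 83 transcripts 52 passed the filter on low counts, and none of these passed an adjusted p of 0.05, where 0.0135% of 44281 transcripts did. The transcript test missed most of the changes put into simulated counts, so the lack of calls says little about these transcripts. By the cutoffs the study used for mRNAs, an absolute log2 fold change over 1 with an unadjusted p under 0.05, 1 of the 52 was counted, against 3.5% of all transcripts tested and 0.778% of all genes. The study took its p from Cuffdiff and describes leaving out genes that differed strongly within a group. Here the cutoffs were applied to edgeR values without that exclusion. The groups did not overlap in 7 of the 52, against 14% of all transcripts. The rule that assigned a read to 1 of several transcripts is not given in the sources used here, and several transcripts of these genes have no base of their own.

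HLA-C counts went mainly to 3 full-length spliced transcripts, which differ by short stretches of sequence. None of the 3 has a base of its own among the HLA-C transcripts with counts, so their split depends on how reads were assigned. ENST00000383329 has 18 further bases (chr6:31269526-31269543, GRCh38) at the 5′ end of exon 6 of 8, an exon that encodes part of the cytoplasmic tail, and ENST00000376228 lacks them. The stretch is shown because these bases are all that separates the counts of the pair, with the added bases in capitals and 6 bases on each side.
ENST00000383329: gctcagGGCATTTTCTTCCCACAGgtggaa
ENST00000376228: gctcaggtggaa

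ENST00000383329 held 270, 360 and 167 counts in the control libraries and 71, 74 and 0 in the treated libraries. Its share of the HLA-C counts was 35.2%, 43.2% and 38.0% against 24.5%, 26.2% and 0%. It was the only one of the 9 leading transcripts whose share did not overlap between groups (exact permutation test, two-sided p = 0.1, adjusted over the 9 genes p = 0.9), where 10.8% of the 11552 genes with at least 2 transcripts did not overlap. There were 2 to 3 of the 9 when control library 1 or 3 or treated library 2 or 3 was left out, against 20% to 21.2% of genes with 1 library left out. ENST00000376228 held 115, 190 and 69 counts in the control libraries and 42, 40 and 180 in the treated libraries, so the third treated library had 180 counts of the shorter form and 0 of the longer one. ENST00000376237, annotated for nonsense-mediated decay, held 205, 122 and 55 against 38, 43 and 107 counts. The 3 together held 590, 672 and 291 counts in the control libraries and 151, 157 and 287 in the treated libraries. The other 6, of which 5 retain introns, held 177, 161 and 148 against 139, 125 and 183 counts. Scaled by library size, the full-length forms stood at 52.3, 50.7 and 21.8 CPM against 13.2, 12.5 and 23.2 CPM, and the others at 15.7, 12.1 and 11.1 against 12.1, 9.99 and 14.8 CPM. Both overlapped between the groups, through the third library of each in the full-length forms, and the division was made after the values were seen. With protein_coding transcripts alone the log2 fold change of HLA-C was -1.35 ± 0.29 (SE, edgeR adjusted p = 0.142), which also depends on the division among transcripts.

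The division of NLRC5 counts among transcripts also differed between libraries. ENST00000262510 and ENST00000436936 have no base of their own among the NLRC5 transcripts with counts, so their split depends on how reads were assigned. ENST00000262510 held 274, 26 and 246 counts in the control libraries and 198, 239 and 194 in the treated libraries. ENST00000436936, which lacks its first exon (chr16:56989498-56989595, 98 bases) and starts at the next one (chr16:57017074-57017188), held 122, 399 and 148 counts in the control libraries and 0, 69 and 0 in the treated libraries. ENST00000539881, annotated for nonsense-mediated decay, with its last exon upstream of that of the others (chr16:57047743-57048354), held 29, 16 and 54 counts in the control libraries and 113, 78 and 148 in the treated libraries. It was the 1 transcript that met the study's cutoffs when applied to edgeR values, with a log2 fold change of 1.83 ± 0.54 (SE, edgeR p = 0.0161, adjusted p = 0.731, exact permutation test p = 0.1). All 3 treated libraries had more counts of it than any control library. Transcripts not annotated as protein_coding made up 18.1%, 13.2% and 27.4% of the NLRC5 counts in the control libraries and 45.2%, 31.2% and 51.3% in the treated libraries (exact permutation test, two-sided p = 0.1, adjusted over the 9 genes p = 0.45). With protein_coding transcripts alone the log2 fold change of NLRC5 was -0.72 ± 0.18 (SE, edgeR adjusted p = 0.181), a value that depends on the division of counts among transcripts.

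The same share was 49.8%, 34.0% and 40.8% of the HLA-C counts in the control libraries and 53.8%, 51.8% and 61.7% in the treated libraries (exact permutation test, two-sided p = 0.1, adjusted p = 0.45). HLA-C and NLRC5 were the 2 of the 9 genes in which this share did not overlap between groups, against 10.8% of the 9789 genes with both kinds of transcripts. With 1 library left out there were 2 to 4 of the 9, against 20.1% to 21.4% of genes, and 4 without treated library 1 or 2. For HLA-F, the log2 fold change went from -0.22 to -0.63 ± 0.34 (SE, edgeR adjusted p = 0.463) with protein_coding transcripts alone. B2M and TAPBP then had the opposite sign, at -0.099 ± 0.11 and -0.035 ± 0.40 (SE, edgeR adjusted p = 0.731 and 0.98).

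TAP2 had an even sum and an uneven division. ENST00000620123 held 657, 76 and 700 counts in the control libraries and 677, 703 and 682 in the treated libraries. ENST00000374899, which ends at another last exon (chr6:32821833-32822318, 486 bases), held 16, 725 and 10 counts in the control libraries and 12, 12 and 8 in the treated libraries. The second control library thus had 89.0% of its TAP2 counts in a transcript that held at most 2.31% in each of the other libraries, while its TAP2 sum of 61.5 CPM lay inside the range of the rest. The third TAP2 transcript by level, ENST00000374897, held 0, 0 and 34 counts against 25 in each treated library. The second control library was also the one with 26 counts of ENST00000262510 and 399 of ENST00000436936 in NLRC5.

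TAPBP counts were divided differently in nearly every library. ENST00000434618 held 582, 153 and 268 counts in the control libraries and 58, 223 and 516 in the treated libraries, and ENST00000437116, which retains an intron, held 59, 287 and 116 against 616, 127 and 150. The first treated library had its TAPBP counts mostly in the second of these, and its TAPBP sum was the highest of the 6. ENST00000480730, also with a retained intron, was even at 118, 127 and 150 against 110, 153 and 110 counts.

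**Figure D3:**
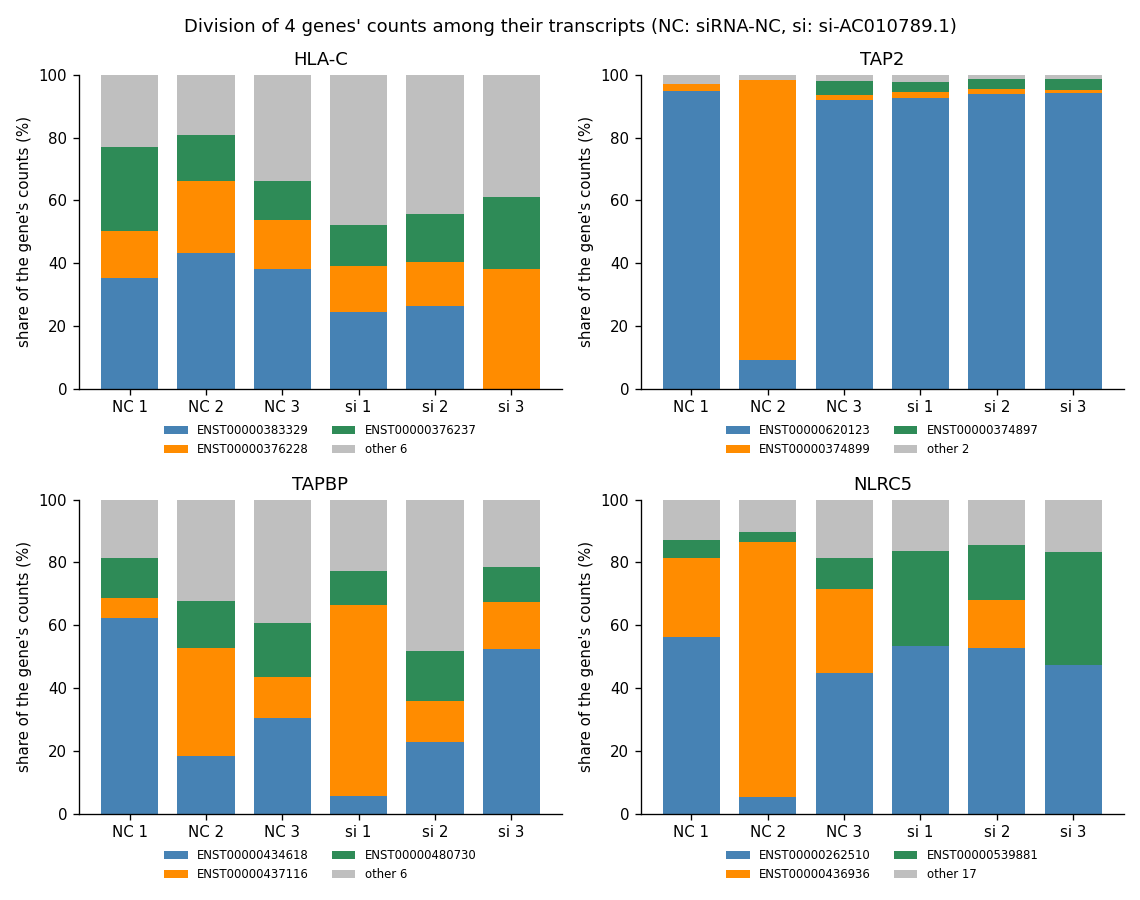
Share of the counts of HLA-C, TAP2, TAPBP and NLRC5 (y axis, percent) in their 3 most abundant transcripts and in all others, for the 3 siRNA-NC libraries (NC 1 to 3) and the 3 si-AC010789.1 libraries (si 1 to 3). The second control library stands apart in TAP2 and NLRC5, and ENST00000383329 of HLA-C takes 35.2% to 43.2% in the control libraries and 0% to 26.2% in the treated ones.

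The remaining genes had a steadier leading transcript or low counts. ENST00000376630 held 91.9% to 95.7% of the HLA-E counts in siRNA-NC and 89.0% to 92.0% in si-AC010789.1, and the other 2 HLA-E transcripts, ENST00000493699 and ENST00000484194, held 34 to 75 and 1 to 10 counts. ENST00000354258 held 94.5% to 95.5% of the TAP1 counts in siRNA-NC and 84.7% to 96.4% in si-AC010789.1, where the first treated library had 73 counts of the intron-retaining ENST00000486332 and the other libraries 11 to 29. Both genes thus had 1 dominant form in every library. ENST00000487296 of TAP1 held 10 to 19 counts. ENST00000558401 held 57.8% to 68.4% of the B2M counts over the 6 libraries, followed by ENST00000623550 with 68 to 156 counts and ENST00000561139 with 48 to 118. In HLA-B, ENST00000412585 held 261, 427 and 347 counts in the control libraries and 305, 160 and 311 in the treated libraries. The intron-retaining ENST00000474381 of HLA-B held 281, 257 and 286 against 114, 389 and 316 counts, so that each of the pair led in 3 of the 6 libraries. ENST00000463574 held 103, 107 and 111 against 84, 98 and 86. In HLA-F the leading forms came and went between libraries of 1 group: ENST00000334668 held 24, 0 and 88 counts in the control libraries and 24, 0 and 79 in the treated libraries, ENST00000259951 held 52, 83 and 0 against 44, 4 and 0, and ENST00000462777 held 7, 20 and 3 against 1, 52 and 55.

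Reads can be shared between some of these genes. The share of 50-base stretches of a gene's transcripts that also occur in other genes was 2.72% for HLA-B, 5.46% for HLA-C, 4.34% for HLA-E, 1.05% for HLA-F, 0.93% for TAP1, 4.17% for TAPBP and 31.3% for TAP2, and no stretch of B2M or NLRC5 was shared. For TAP2 the partner is mostly AL669918.1, an annotated gene on the same strand that covers 32.3% of its exonic bases and held 33 counts over all libraries. HLA-F shares 12.3% of its exonic bases with HLA-F-AS1 on the opposite strand, which held 81 counts over all libraries. Whether reads were counted by strand is not given in the sources used here.

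Other genes of the class I pathway were listed by role, 68 in all, of which 64 had counts and 61 were tested. GANAB, the catalytic subunit of glucosidase II, which trims the glucoses of new glycoproteins before calnexin and calreticulin bind them, was the 1 gene called, higher with si-AC010789.1. Over all genes tested, 0.982% were called, 0.284% of them higher and 0.698% lower as shares of all genes. GANAB rose from 471, 487 and 448 CPM in siRNA-NC to 734, 773 and 755 CPM in the treated libraries, with a log2 fold change of 0.69 ± 0.047 (SE, edgeR adjusted p = 0.00694). With the replicate number as a block it had the same log2 fold change of 0.69 and an adjusted p of 0.101 in edgeR, over the threshold. At an unadjusted p under 0.05 there were 20 of the 61, of which 13 had lower and 7 higher means, against 17.2% of all genes, and 13 of the 61 without the first treated library. The median log2 fold change of the 61 was -0.043, and 21 of them did not overlap between groups, against 25.1% of all genes. Counts by role say nothing of a role beyond its genes, since the list was written by hand.

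Of the peptide loading and trimming genes, 9 were tested, and the median log2 fold change was -0.043. Calnexin, the lectin chaperone encoded by CANX, stood at 1224, 1227 and 1876 CPM in siRNA-NC and at 1793, 1809 and 1861 CPM in si-AC010789.1. The third control library had the highest value of the 6, and without it the log2 fold change went from 0.34 ± 0.17 (SE, edgeR adjusted p = 0.365) to 0.57 ± 0.039 (SE, adjusted p = 0.0332). CALR (calreticulin) stood at 768 to 852 CPM in siRNA-NC and 735 to 797 CPM in si-AC010789.1 (log2 fold change -0.091), and PDIA3 (ERp57) at 544 to 592 and 534 to 586 CPM (-0.037). The aminopeptidases that trim peptides, ERAP1 and ERAP2, stood at 15.4 ± 0.546 and 15.7 ± 1.35 CPM, and at 4.26 ± 0.479 and 3.84 ± 0.520 CPM (SD, n = 3). TAPBPL was not analysed here.

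Of 13 proteasome and peptidase genes, 5 had an unadjusted p under 0.05, 3 higher and 2 lower, against 17.2% of all genes (8.92% lower). The median log2 fold change of the 13 was 0.061. The immunoproteasome subunit PSMB8 stood at 40.2, 41.6 and 41.3 CPM in siRNA-NC and at 49.3, 46.5 and 44.1 CPM in si-AC010789.1 (log2 fold change 0.18 ± 0.070, SE, edgeR adjusted p = 0.253), without overlap, where 5 of the 13 and 25.1% of all genes did not overlap. PSMB9 and PSMB10, the other two, stood at 4.34 ± 0.419 and 3.68 ± 0.468 CPM, and at 4.30 ± 0.851 and 4.799 ± 0.666 CPM (SD, n = 3). PSMB6, the constitutive subunit that PSMB9 replaces, stood at 37.5, 39.0 and 33.7 CPM in siRNA-NC and at 59.3, 50.5 and 38.5 CPM in si-AC010789.1 (log2 fold change 0.43 ± 0.16, SE, edgeR adjusted p = 0.251). The third treated library lay between control values, and the log2 fold change of PSMB6 was 0.28 without the first treated library. PSMB8 shares 4.64% of its exonic bases with PSMB9 on the opposite strand, and PSMB10 shares 34.8% of its exonic bases with AC040162.1, which held 118 counts over all libraries.

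Of 16 transcription factors 12 had a log2 fold change below 0, against 50.1% of all genes, with a median of -0.13. An unadjusted p under 0.05 was found in 5, all of them lower, against 17.2% of all genes (8.92% lower). IRF2 stood at 8.77, 9.80 and 10.5 CPM in siRNA-NC and at 7.16, 6.71 and 5.34 CPM in si-AC010789.1 (log2 fold change -0.60 ± 0.15, SE, edgeR adjusted p = 0.134). RELA, the p65 subunit of NF-κB, stood at 67.7, 56.3 and 69.9 CPM against 48.0, 41.9 and 49.6 CPM (-0.48 ± 0.11, SE, edgeR adjusted p = 0.109), and IRF1 at 14.4, 14.2 and 15.5 against 11.6, 12.5 and 11.8 CPM (-0.30 ± 0.092, SE, edgeR adjusted p = 0.186). None of the 3 overlapped between groups, where 7 of the 16 did not, against 25.1% of all genes (12.9% lower). IRF2 and RELA were named for their fold changes, among the 3 lowest of the whole list. None of the 3 passed the adjusted threshold in edgeR, while DESeq2 called RELA (adjusted p = 0.0157), against 3.78% of all genes. RFX5, the DNA-binding partner of NLRC5 at the X box, stood at 125, 120 and 77.1 CPM against 129, 136 and 150 CPM (0.37 ± 0.18, SE, edgeR adjusted p = 0.368), with the third control library far below the rest. Without that library the log2 fold change of RFX5 was 0.17 (edgeR adjusted p = 0.399).

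Of 7 interferon receptors and kinases, 5 had a log2 fold change below 0, against 50.1% of all genes, with a median of -0.11. JAK1, a kinase shared by interferon receptors, stood at 198, 184 and 212 CPM in siRNA-NC and at 185, 160 and 170 CPM in si-AC010789.1 (log2 fold change -0.21 ± 0.075, SE, edgeR adjusted p = 0.24), where the groups overlapped by less than 1 CPM. IFNGR1, a chain of the interferon-γ receptor, stood at 24.0 ± 1.76 and 22.2 ± 3.54 CPM (SD, n = 3). Of 9 tested genes of surface turnover and retrieval, 6 had a log2 fold change above 0, against 6860 of all 13750 genes tested, with a median of 0.052.

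Among the class I-like heavy chains 7 were tested, and they included the lowest log2 fold change of the whole list. MR1, which presents vitamin B metabolites to mucosal-associated invariant T cells and also pairs with β2-microglobulin, stood at 22.7, 21.8 and 26.4 CPM in siRNA-NC and at 16.0, 8.95 and 14.2 CPM in si-AC010789.1 (log2 fold change -0.86 ± 0.21, SE, edgeR adjusted p = 0.126, DESeq2 adjusted p = 0.014). MICA, a stress-induced ligand of NKG2D that needs neither peptide nor β2-microglobulin, stood at 50.3, 50.6 and 56.5 CPM against 64.7, 68.2 and 77.7 CPM (0.42 ± 0.092, SE, edgeR adjusted p = 0.0995, DESeq2 adjusted p = 0.0127). Neither gene overlapped between groups, in opposite directions. Of the 7 tested, 3 did not overlap, against 25.1% of all genes, and MR1 and MICA were named for their fold changes. HLA-G was not analysed here.

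**Figure D4:**
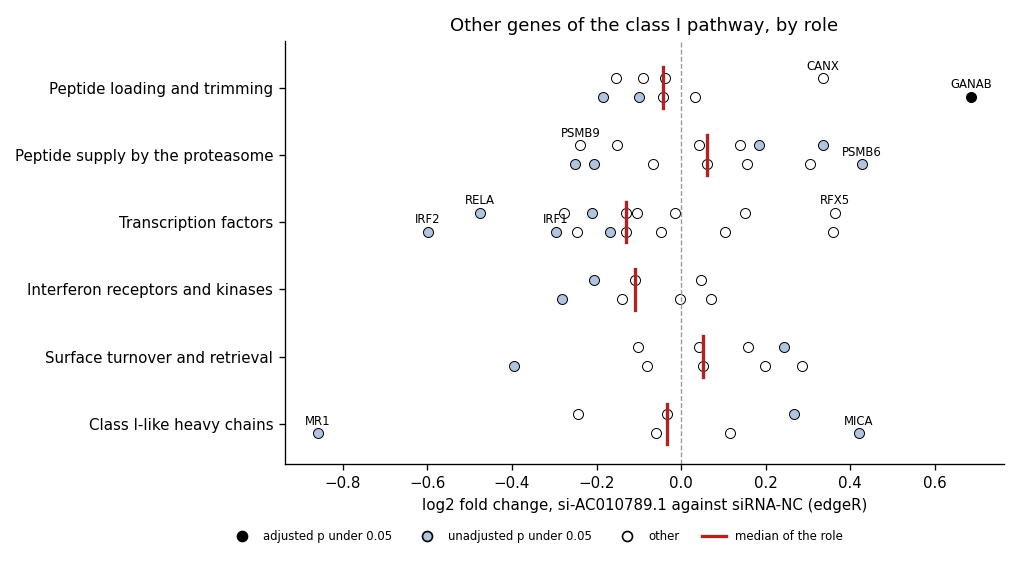
Log2 fold change (x axis) of si-AC010789.1 against siRNA-NC for the 61 tested genes of the class I pathway outside the 9, by role (y axis); filled black points have an adjusted p under 0.05, blue points an unadjusted p under 0.05, and red lines are medians of a role. GANAB at 0.69 is the 1 black point, and the medians of the 6 roles lie between -0.13 and 0.061.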

How the data were processed

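RNA from 3 libraries of each group (siRNA-NC and si-AC010789.1) was sequenced. The values the authors deposited are raw read counts for each Ensembl transcript, not normalized. The submitters' processing notes name CASAVA 1.8, TopHat2 2.0.6, and the builds mm10 and GRCh38; the counting program and annotation are not given in the sources used here. Columns of no sample: 0.

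Transcripts were assigned to genes by GENCODE v29 (GRCh38) and their counts added; 104 of 98886 identifiers were not matched (0.0686% to 0.103% of counts). Reads of polymorphic HLA genes depend on alignment to 1 reference. edgeR 4.0.16 (TMM, filterByExpr, quasi-likelihood test) and DESeq2 1.42.0 were run in R 4.3.3, with p-values adjusted by Benjamini-Hochberg over all features. Floors of 3 counts cover counting error only. Ratios, shares and single CPM values were compared by exact two-sided permutation tests (scipy 1.17.1). No libraries were duplicates: counts of each pair differed beyond sampling noise (chi-square per degree of freedom 13.6 to 20.5).

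The 9 genes and the lists were chosen with earlier results of these data known. Named were the 9 genes, their 3 most abundant transcripts each, and, of the pathway list, called genes, 15 genes set by name (some of which are not reported here) and the 3 highest and 3 lowest fold changes; ENST00000640615 and AL669918.1, HLA-F-AS1 and AC040162.1 were named after their values were seen. The scripts were tested on simulated data. The alternatives were DESeq2, RLE normalization, no filter or a mean of at least 1 CPM, the replicate number as a block, sums of protein_coding transcripts and leaving out each library.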

Additional observations from a re-analysis of the deposited data

How the results depend on the processing

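Of 108 alternative values for the log2 fold changes of the 9 genes, 99 kept the direction and the side of the threshold, 8 changed sign and 1 passed the threshold (HLA-C, -0.93 with DESeq2). In HLA-E, B2M and TAP2 the sign changes were in genes near 0. Leaving out 1 library gave HLA-E -0.16 to 0.044, B2M -0.046 to 0.077 and TAP2 -0.017 to 0.043, and protein_coding transcripts alone gave B2M -0.099. TAPBP was not near 0: its log2 fold change of 0.22, the highest of the 9, went to -0.035 ± 0.40 (SE) with protein_coding transcripts alone. ERAP1 (-0.029 to 0.091) also changed sign without 1 library. The cause was not tested.

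The genes called higher and lower, 39 and 96, became 217 and 303 with DESeq2, 16 and 53 with no filter on low counts, and 7 to 11 and 5 to 28 without 1 library. Of the 9 genes, DESeq2 called 1 lower. Of the pathway list it called 2 higher and 2 lower, against 1 and 0, and leaving out 1 library gave 1 to 2 higher. Leaving out each library was applied to the counts of non-overlapping genes after the data were seen: those of CPM were 3 to 5 of 9 (5 without the third treated library, all genes 34.2% to 35.8%), those of the leading-transcript share 1 to 3 of 9 (all genes 20% to 21.2%) and those of the share of transcripts other than protein_coding 2 to 4 of 9 (all genes 20.1% to 21.4%).

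The replicate number as a block left 0 genes called higher and 0 lower (2163 at an unadjusted p under 0.05), and 0 of the pathway list, with GANAB at an adjusted p of 0.101. Deviations of same-numbered libraries had an r of 0.098, 0.005 and 0.0075, and whether a number marks a shared generation of cells is not given in the sources used here. With 3 libraries a group, exact permutation tests could not go below p = 0.1, and depth set a floor of 3 counts at 0.223 to 0.266 CPM.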
